A study of Homo sapiens with 24 samples.

Results

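The miR-135a mimic was compared with the non-targeting (NT) control mimic in MDA-MB-231, a human breast cancer cell line. Each group had 2 arrays, so the comparison holds 4 of the 24 arrays of the series. For both groups, 290000 cells in DMEM with 10% serum were transfected at 50 nM and their RNA was measured after 48 hours on Illumina HT12v4 bead arrays. The other arrays hold mimics of 5 further microRNAs (miR-655-3p, miR-544a, miR-410, miR-369-3p, miR-127-5p) and 5 inhibitors, miR-135a among their targets, at the same dose and time. A mimic is a synthetic RNA duplex that acts as a mature microRNA. The NT control mimic carried a fluorescent dye, and no array of untransfected cells was used here. The sources do not say whether separate cultures gave the 2 arrays of a group. The p-values therefore measure only the spread between arrays of the same group, pooled over the 12 groups of the series. That spread may be technical. Of 47309 probes, 20069 had a detection p under 0.05 on the 2 arrays of the mimic, of the NT control, or of both. They carry single gene symbols for 11514 genes. The counts of probes, genes and lists also hold 2734 probes detected in other groups only. Of these 2734, 3 were called lower and 2 higher with the mimic than with the NT control.

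A microRNA guides an Argonaute protein to messenger RNAs that pair with its seed, bases 2 to 8 from the 5′ end, and such messages are translated less and degraded. The miR-135 family is studied as a regulator of JAK2, of the Wnt pathway scaffold APC, of ROCK1 and of BMP signaling genes in several human tissues and tumours. The sample label names miR-135a without an arm, so the RefSeq mature sequences of both arms and of the family member miR-135b-5p are shown (build GRCh38.p14), with the seed in capitals, because the seed is what sets the messages a mimic can pair with.
hsa-miR-135a-5p: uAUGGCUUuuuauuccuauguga
hsa-miR-135b-5p: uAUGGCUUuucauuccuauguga
hsa-miR-135a-3p: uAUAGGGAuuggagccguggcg
The 5p sequence lies at chr3:52294270-52294292 on the minus strand in the gene MIR135A1, and the 3p sequence at chr3:52294232-52294253. miR-135b-5p, at chr1:205448361-205448383 on the minus strand, differs from miR-135a-5p by U11C, counted from the 5′ end. Both carry the seed AUGGCUU, and they are the only 2 of 2370 mature microRNA names in the table that do. The seed of the 3p arm is a different one. Whether the messages that fell hold matches to these seeds was not tested, because no transcript sequences were used here.

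The median signal was 120 and 114 on the NT control arrays and 103 and 112 on the mimic arrays, against 102 to 123 over the series. Replicate 1 of the mimic had the fewest detected probes of the 24 arrays, with 19754, and replicate 1 of the NT control the most, with 21286. The lowest signal still called detected was 26.3 and 27.0 on the NT control arrays and 28.3 and 27.3 on the mimic arrays after normalisation, so levels near 27 are at the limit of the arrays. All 13 identity genes of MDA-MB-231 on the list used were measured, and 1 of them, EGFR, was called lower with the mimic. The estrogen receptor gene ESR1, the progesterone receptor gene PGR and the leukocyte gene PTPRC were too dim to test. Of the other cell type markers, 4 of 11 luminal, 2 of 7 leukocyte and 4 of 9 endothelial or fibroblast genes were measured. Of these, 2 luminal (XBP1 and GATA3), 2 leukocyte (CD68 and CD14) and 1 endothelial or fibroblast gene (PDGFRB) were called lower and 0 higher, where 9.28% of all genes were lower and 10.0% higher. The call of GATA3 was lost without mimic array 1 (adjusted p = 0.0598) or NT control array 1 (0.0981). CD68, a lysosomal protein also found outside leukocytes, was at 507 and 514 on the NT control arrays and 141 and 154 on the mimic arrays. The log2 fold change of CD68 was -1.79 at this brightest probe and -0.67 at the second, also called. The dimmest probe of CD68, at -0.16, was not called. In bulk RNA, fewer cells of a kind and less RNA per cell cannot be told apart.

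Of 22803 probes tested, 1886 (8.27%) were lower and 1857 (8.14%) were higher with the mimic than with the NT control, where a call needs a fold of at least 1.4 and an adjusted p (limma, Benjamini-Hochberg) under 0.05. Of the 17460 probes detected on all 4 arrays, 1658 were lower and 1681 higher. A further 1764 probes were detected on both arrays of the NT control and not on both of the mimic, of which 225 were lower, and 845 on both arrays of the mimic and not on both of the NT control, of which 174 were higher. These last counts can only run in one direction. With each gene taken at its brightest tested probe, 1163 of 12529 genes (9.28%) were lower and 1258 (10.0%) were higher, and the median log2 fold change over all genes was 0.01. When arrays were scaled to their medians instead of by quantiles, that median moved to -0.20. Then 2768 probes were lower and 509 higher, so that 84.5% of the calls were lower in place of 50.4%. List counts under median scaling are to be read beside these. Those without background correction stand beside 957 probes lower and 922 higher. Over the 10502 genes detected on all 4 arrays, 10.0% were lower and 11.2% higher. The other 5 mimics had 630 to 2235 probes lower and 527 to 2559 higher than the same NT control arrays. Against the mean of the other 5 mimics, which does not use the NT control, 1013 genes (8.09%) were lower and 936 (7.47%) were higher with miR-135a. Both comparisons use the same 2 arrays of the miR-135a mimic, and 670 genes were called lower and 605 higher in both.

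**Figure D1:**
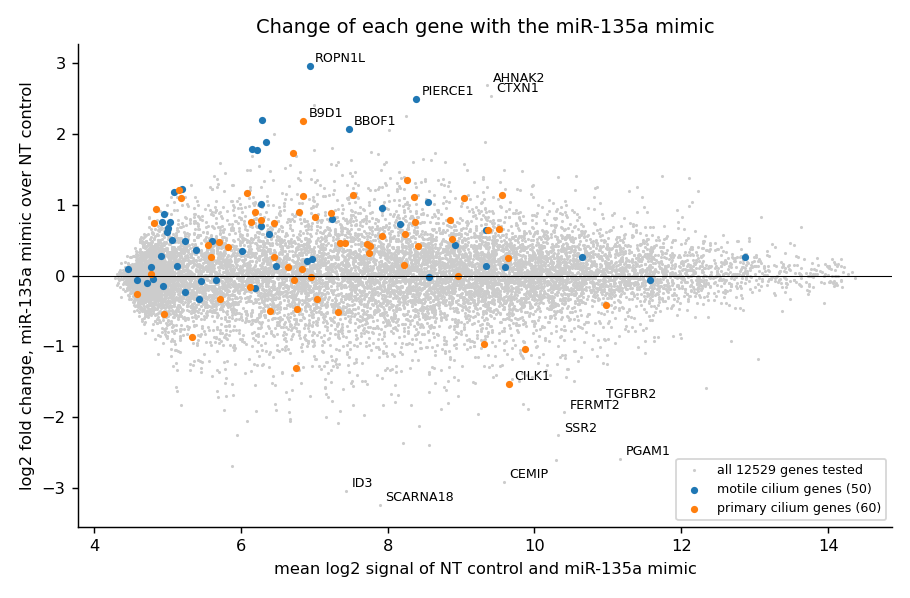
Each point is a gene at its brightest tested probe, with the mean log2 signal of the 2 groups on the x axis and the log2 fold change of the miR-135a mimic over the NT control on the y axis. Genes of motile cilia (blue) and of primary cilia (orange) lie mostly above 0, up to ROPN1L at 2.96, and SCARNA18 and ID3 are the lowest named points at -3.24 and -3.04.

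The gene with the largest fall among protein-coding genes was ID3, which encodes an inhibitor of DNA binding that is induced by BMP signals. Its signal was 519 and 474 on the NT control arrays and 63.8 and 56.7 on the mimic arrays. The groups did not overlap, which was a condition for naming the gene. The log2 fold change was -3.04 (limma adjusted p = 3.16e-10, standard error or SE 0.12). CEMIP, a protein that breaks down hyaluronan, had signals of 2049 and 2172 with the NT control and 268 and 292 with the mimic (log2 fold change -2.91, SE 0.12). The mimic group had the lowest mean of all 12 groups for both genes, with ID3 means of 74.7 to 496 and CEMIP means of 333 to 2111 in the other 11.

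PGAM1, the phosphoglycerate mutase of glycolysis, gave 5491 and 5768 with the NT control and 953 and 919 with the mimic, a log2 fold change of -2.59 (SE 0.22, adjusted p = 5.33e-07). PGAM4 is a near-identical copy of PGAM1, so its log2 fold change of -2.61 cannot be told apart from that of PGAM1. All 5 tested probes of the pair were called lower. SSR2, a subunit of the translocon-associated protein complex of the endoplasmic reticulum, fell from 2984 and 2640 to 589 and 585, with a log2 fold change of -2.26 (SE 0.23). EFCAB14, a calcium-binding domain protein, was at 702 and 642 against 116 and 147 (log2 fold change -2.36), and SCML1, a Polycomb-related protein, at 872 and 858 against 143 and 191 (log2 fold change -2.39). For SSR2 and the PGAM genes the other 11 groups lay close together, with means of 1960 to 2855 for SSR2 and 3474 to 5629 for PGAM1, and the mimic alone lay below them. HSD3B1, a steroid dehydrogenase, was at 157 and 144 with the NT control and was detected on neither mimic array, which makes it at least 5.40-fold lower. Its NT control mean was the highest of the 12 groups. The HSD3B1 mean was as low with the miR-135a inhibitor, at 25.6, and was 35.5 to 111 in the remaining groups. The 2 small Cajal body RNA genes among the 10 lowest, SCARNA18 and SCARNA20, are described with their family.

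ROPN1L, a protein of the radial spokes of motile cilia and sperm tails, was the most raised gene. Its signal was 39.5 and 48.3 with the NT control and 372 and 312 with the mimic, a log2 fold change of 2.96 (limma adjusted p = 2.25e-08, SE 0.18), while the other 11 groups had means of 41.7 to 75.3. AHNAK2, a very large scaffold protein, rose from 239 and 279 to 1705 and 1623 (log2 fold change 2.69, SE 0.15). CTXN1, a small membrane protein of neurons, rose from 279 and 285 to 1626 and 1655 (log2 fold change 2.54). PIERCE1, a protein inside the doublet microtubules of cilia, rose from 144 and 139 to 845 and 753, with a log2 fold change of 2.50 (SE 0.13). The remaining genes among the 10 most raised were CLBA1, a clathrin-binding protein, AMMECR1, DNAAF3, B9D1, BBOF1 and LIAT1, at log2 fold changes of 2.06 to 2.41. The 4 cilium genes beside ROPN1L in this group of 10 are PIERCE1, DNAAF3, B9D1 and BBOF1. For each of the 10, the mimic had the highest mean of the 12 groups. That no array of the NT control overlapped an array of the mimic was a condition for naming them.

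**Figure D2:**
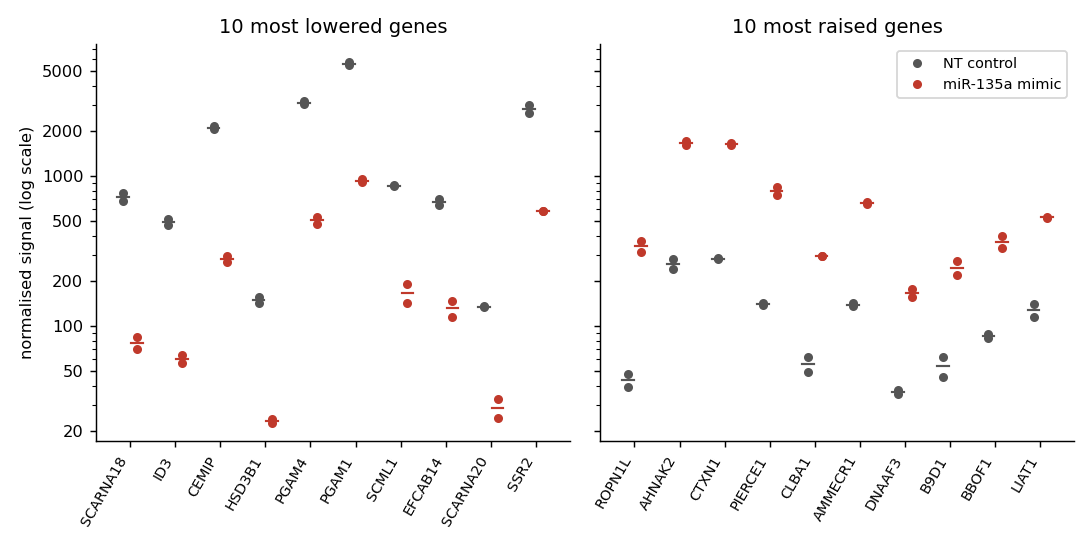
Normalised signal (log scale) on each of the 2 NT control arrays (grey) and 2 miR-135a mimic arrays (red) for the 10 genes with the largest fall and the 10 with the largest rise, with a bar at each group's mean. Genes were picked with the 2 groups apart, so the separation in all 20 follows from the choice, for example ID3 at 474 and 519 against 56.7 and 63.8.

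The largest falls against the other 5 mimics that are not yet named were those of HIF1AN, CMTM3, MPZL2, FOXN3, ESRRA and HPS3. HIF1AN, the asparagine hydroxylase that restrains HIF1A, was at 266 and 237 with the NT control and 89.7 and 87.8 with the mimic. Its log2 fold change was -2.06 against the other mimics (adjusted p = 2e-08) and -1.50 against the NT control. The forkhead factor gene FOXN3 was at 1869 and 1841 against 482 and 525, with log2 fold changes of -1.82 against the other mimics and -1.88 against the NT control. HPS3, a subunit of a complex that sorts cargo to lysosome-related organelles, was at 424 and 385 against 111 and 94.7. CMTM3 had a log2 fold change of -2.13 against the NT control at its brightest probe, while its 2 dimmer probes had values of -0.03 and -0.05. MPZL2, an adhesion protein, was close to the detection limit in both groups, at 45.6 and 48.7 against 30.3 and 32.1. Its call against the NT control was lost without mimic array 1 or NT control array 2 (log2 fold changes -0.56 and -0.55). MPZL2 means were above the NT control (47.2) with the miR-655-3p (439), miR-544a (222) and miR-369-3p (96.6) mimics. With the miR-127-5p and miR-410 mimics they were 46.5 and 39.9. On the raised side were IQCK, CFAP69, the long noncoding RNA gene LINC02783 and PMAIP1, which encodes the BH3-only protein NOXA. IQCK rose from 212 and 229 to 746 and 720. Its log2 fold change was 2.11 against the other mimics and 1.74 against the NT control. PMAIP1 rose from 252 and 206 to 586 and 563. The dimmer probe of PMAIP1, at a log2 fold change of 0.40, was not called against the NT control.

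Of 26 genes reported elsewhere as targets of miR-135a, 20 were measured, and 9 of the 20 were lower and 0 higher than with the NT control, against 9.28% and 10.0% of all genes. The median log2 fold change of the 20 was -0.32. When the other 5 mimics were the reference, 7 were lower and 0 higher, against 8.09% and 7.47% of all genes. PHLPP2, a phosphatase that acts on AKT, was at 310 and 322 with the NT control and 82.9 and 84.9 with the mimic, a log2 fold change of -1.91 (limma adjusted p = 2.53e-06, SE 0.19). The orphan nuclear receptor gene ESRRA fell from 429 and 403 to 160 and 170, with a log2 fold change of -1.33 (SE 0.18). SIRT1, a deacetylase, fell from 177 and 160 to 77.7 and 91.5 (adjusted p = 0.000265). For these 3 genes the mimic lay below all 11 other groups, whose means were 160 to 336 for PHLPP2, 408 to 715 for ESRRA and 134.5 to 201 for SIRT1.

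EGFR, the epidermal growth factor receptor gene, was at 865 and 933 against 381 and 426 at its brightest probe (log2 fold change -1.16, adjusted p = 7.13e-06), and its dimmer probe had a log2 fold change of 0.43 that was not called. TXNIP, a thioredoxin-binding protein, fell from 2167 and 2110 to 1374 and 1326 (log2 fold change -0.66), and with the miR-135a inhibitor it was higher than the same NT control by 1.24 on the log2 scale. TXNIP means were above the NT control (2138) in each of the 5 inhibitor groups, at 2899 to 5054, and with 4 of the other 5 mimics. The BMP signaling genes SMAD5 and BMPR2 had log2 fold changes of -0.81 and -0.80 against the NT control. Against the other mimics SMAD5 was at -0.01 and not called. BMPR2 was higher than the mean of the other mimics, at 0.45 (limma adjusted p = 0.00229), and was not called because its fold was too small. The BMPR2 mean was 874 with the NT control, 503 with the mimic and 461 with the miR-135a inhibitor. With the other mimics it was 163 to 788. RUNX2 was called lower (log2 fold change -0.73, adjusted p = 0.00333), with 229 on mimic array 1 and 330 on mimic array 2. Without mimic array 1 its log2 fold change was -0.47 (adjusted p = 0.0748). ROCK1 was detected on both NT control arrays, at 53.3 and 51.7, and on neither mimic array, so that it was at least 1.89-fold lower (adjusted p = 0.0306), and its call was lost when any 1 of the 4 arrays was left out. Without each array in turn its adjusted p was 0.0848 to 0.145. JAK2 was at 38.9 and 39.4 against 33.1 and 33.8, near the detection limit, with a log2 fold change of -0.23 (adjusted p = 0.492). The other 10 of the list not called, among them MYC, FOXO1, IRS2, KLF4 and LATS2, had log2 fold changes of -0.35 to 0.21. APC, THBS2 and CXCL12 were among the 5 that were too dim to test.

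TGFBR2, ROCK2, CILK1 and CDH11, the genes examined in the study as targets of the other microRNAs, were read for miR-135a too. TGFBR2, the type II receptor for TGF-beta, was at 3499 and 3598 with the NT control and 984 and 1083 with the mimic, a log2 fold change of -1.78 (limma adjusted p = 1.98e-07, SE 0.14). Its log2 fold change against the other 5 mimics was -0.88, also called, and among the 12 groups only miR-544a had a lower mean, at 799. The other mimics ranged from there to 5071, the mean with miR-127-5p. In the 5 inhibitor groups the TGFBR2 means were also below the NT control (3549), at 1442 to 1811, with the miR-135a inhibitor at 1442. CILK1, a ciliary kinase formerly named ICK, was at 1332 and 1385 against 420 and 528 (log2 fold change -1.53), and against the other mimics it was at -0.21 and not called. The cadherin gene CDH11 was at 86.4 and 100.8 against 27.3 and 29.5, at the detection limit, with a log2 fold change of -1.72 against the NT control. Against the other mimics CDH11 was at -0.38 and not called. ROCK2, a kinase of the actin cytoskeleton, was at 11946 and 12341 against 12581 and 13658 at its brightest probe (log2 fold change 0.11, adjusted p = 0.471), while its second probe was called lower, at a log2 fold change of -0.69.

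**Figure D3:**
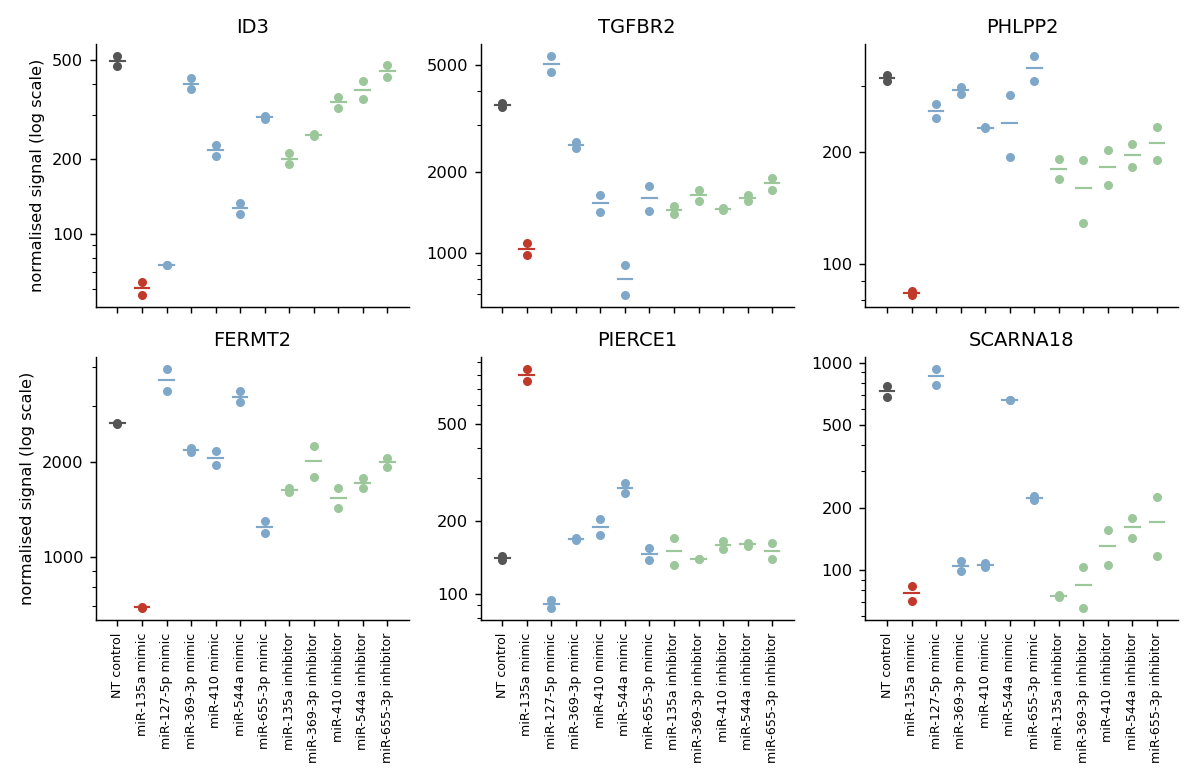
Normalised signal (log scale) on all 24 arrays for 6 genes, with the NT control in grey, the miR-135a mimic in red, the other mimics in blue, the inhibitors in green and a bar at each group's mean. The mimic is apart from every other group for PHLPP2, FERMT2 and PIERCE1, while SCARNA18 is as low in the miR-135a inhibitor group (mean 74.7) as with the mimic (mean 77.4).

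Genes of cilia made up 5 of the 10 most raised genes, and the rest of their kind was read from 2 lists. A cilium is a microtubule-based extension of the cell, built by intraflagellar transport, the traffic of cargo along its microtubules. Primary cilia receive signals such as Hedgehog, and motile cilia add dynein arms, radial spokes and further axonemal proteins that drive beating. Of 50 measured genes of the motile cilium and axoneme, 22 were higher and 0 lower than with the NT control, with a median log2 fold change of 0.46. Of 60 measured genes of the primary cilium and intraflagellar transport, 26 were higher and 5 lower, with a median of 0.45, where 10.0% of all genes were higher and 9.28% lower. These 2 lists were written after 9 of their genes had been seen among the most raised. Some members entered the test only through the mimic arrays, where they are high. Among the genes detected on all 4 arrays, 15 of 35 and 22 of 52 were higher, against 11.2% of all such genes, and without the 9 genes seen first 8 of 28 and 20 of 50 were. The other 57 motile and 5 primary cilium genes with a named probe were too dim to test, among them FOXJ1, the master regulator of motile ciliogenesis, and most axonemal dynein heavy chains.

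The raised genes came from several parts of the organelle. In the transition zone at the base of the cilium, B9D1 rose from 45.6 and 62.6 to 270 and 220 (log2 fold change 2.19, limma adjusted p = 2.29e-08, SE 0.13), and TCTN1 rose from 219 and 228 to 495 and 467 (log2 fold change 1.10). Among subunits of the BBSome, a coat complex that carries membrane proteins in and out of cilia, BBS4 rose from 57.2 and 58.2 to 193 and 191 and BBS1 from 182 and 202 to 479 and 501. The intraflagellar transport genes IFT88, IFT43 and WDR19 had log2 fold changes of 1.14, 1.09 and 1.13, with IFT88 at 125 and 123 against 270 and 276. Among genes for the assembly and motility of the axoneme, DNAAF3, which is needed to preassemble dynein arms, rose from 37.5 and 35.2 to 156 and 177. BBOF1, a protein of the basal body and axoneme, rose from 83.3 and 89.0 to 399 and 330. CFAP69 rose from 43.5 and 40.8 to 145 and 168, and CFAP251 had a log2 fold change of 1.79. DNAAF11, HYDIN, SPEF1, TTC29 and DNAAF19 were detected on neither NT control array and were 1.47-fold to 2.10-fold higher at the least. Having entered the test through the mimic arrays, these 5 could only be higher. RFX3 and RFX1, transcription factors that act on ciliary genes, were called higher at log2 fold changes of 0.61 and 0.59, and RFX2 was at -0.06 (adjusted p = 0.933). RFX3 was at the detection limit with the NT control, at 24.2 and 27.4, and detected on 1 of these arrays. Of its 3 tested probes 1 was called, and against the other mimics RFX3 was at 0.27 and not called.

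The 5 cilium genes that fell were CILK1, GLI2, TMEM237, KIF3B and PTCH1. The Hedgehog effector gene GLI2 was at 163 and 173 against 54.3 and 84.4 (log2 fold change -1.31), the kinesin-2 motor gene KIF3B at 891 and 882 against 426 and 486 (log2 fold change -0.96), and PTCH1, the Hedgehog receptor gene, at 45.9 and 63.7 against 26.8 and 33.0.

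Against the other 5 mimics 25 motile and 27 primary cilium genes were higher and 0 and 5 lower, where 7.47% of all genes were higher and 8.09% lower. The miR-135a mimic had the highest mean of the 12 groups for 29 of 50 and 28 of 60 genes, against 12.9% of all genes. Without the 9 genes seen first, it was highest for 22 of 43 and 26 of 58. Of these, 18 and 25 were higher than with the other mimics. All these counts keep the members detected on no NT control array, 7 motile and 4 primary. Over all 110 genes, the median log2 difference from the NT control was 0.45 with the miR-135a mimic, -0.09 to 0.12 with the other 5 mimics and 0.08 with the miR-135a inhibitor. Under median scaling the medians of the motile and primary lists stayed above 0, at 0.23 and 0.16, which is 0.43 and 0.37 above that of all genes. The counts called higher then fell to 16 and 13, where all probes called higher fell from 1857 to 509. Without background correction the counts were 12 and 15, where 922 of all probes were higher.

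**Figure D4:**
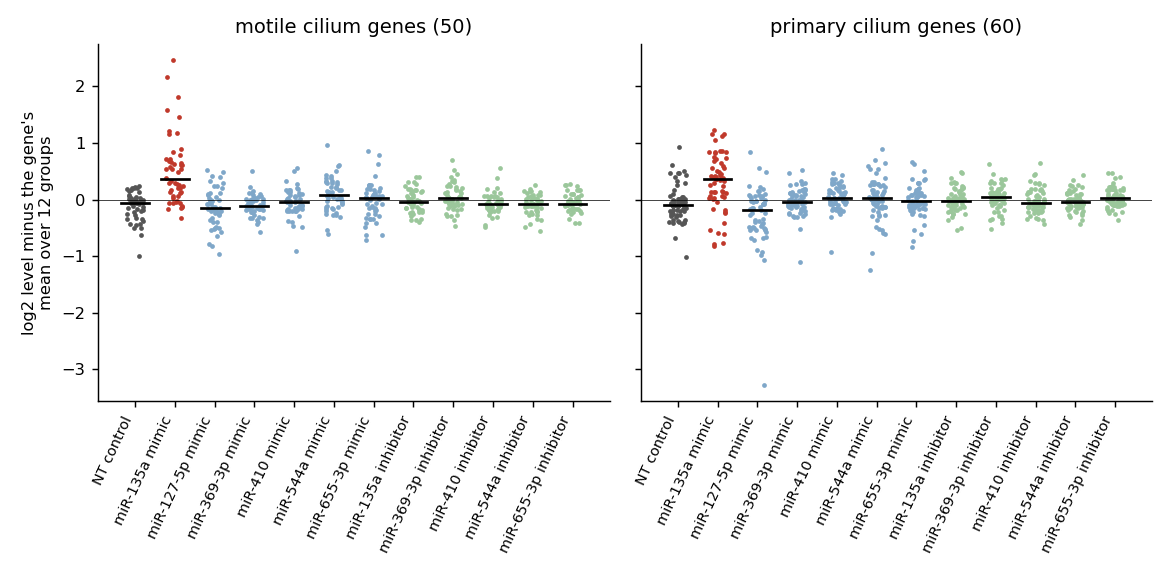
Each point is the log2 level of 1 cilium gene in 1 of the 12 groups minus its mean over the 12 groups, for the 50 motile (left) and 60 primary (right) cilium genes, with a black bar at the median. The bar is at 0.36 with the miR-135a mimic in both panels and between -0.18 and 0.08 in the other 11 groups. The genes seen before the lists were written are included.

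RFX factors bind the X-box, and promoters of the cilium genes were read from 250 bases before to 50 after each start (RefSeq, GRCh38.p14). The letters sought, on either strand, were GTTGCC followed after any 2 bases by GG, with capitals marking the match. Whether these letters make a complete X-box was not tested. Of 95 measured cilium genes with a promoter in the table, 18 (18.9%) held them, against 366 of 9993 tested genes (3.66%). The share was 5 of 40 among cilium genes called higher, 13 of 51 among those not called and 0 of 4 among those called lower. CFAP251, IFT122 and TMEM231 were 3 of the 5 that rose (log2 fold changes 1.79, 0.90 and 0.90). Windows around their match are shown as examples of the letters sought.
CFAP251: ggcggtggcgGTTGCCATGGggacggagct
IFT122: gcgcatgtacGTTGCCAGGGgtaacgcagg
TMEM231: tgagccgtcgGTTGCCGTGGagaccgaggc
They lie at chr12:121918550-121918579 and chr3:129440202-129440231 on the plus strand and at chr16:75556273-75556302 on the minus strand. The match began at -32 from the start for CFAP251, at -12 for IFT122, and at -40 or -6 from the 2 starts of TMEM231. It is a description of letters, and binding was not measured.

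Cells make cholesterol from acetyl-CoA in a chain of enzymes whose genes are under shared control by sterol levels. Of 21 measured genes of cholesterol and lipid synthesis, 10 were higher and 1 lower than with the NT control, with a median log2 fold change of 0.46, where 10.0% of all genes were higher and 9.28% lower. Compared with the other 5 mimics the counts were also 10 and 1, where 7.47% and 8.09% of all genes were. HMGCS1, which makes the precursor HMG-CoA, was at 1094 on both NT control arrays and at 2062 and 1999 with the mimic (log2 fold change 0.89, limma adjusted p = 0.000964, SE 0.17). The sterol demethylation enzyme gene MSMO1 rose from 503 and 513 to 945 and 938 at its brightest probe. The dimmer probes of MSMO1, at log2 fold changes of 0.67 and 0.05, were not called. SQLE, the squalene epoxidase gene, rose from 619 and 671 to 1165 and 1217. ABCA1, which exports cholesterol from the cell, was the gene that fell, at 169 and 193 against 68.6 and 78.6 (log2 fold change -1.30, SE 0.14). The mimic had the highest mean of the 12 groups for 14 of the 21 genes and the lowest for ABCA1. With the miR-135a inhibitor, HMGCS1 and MSMO1 were lower than with the same NT control arrays by 0.93 and 1.02 on the log2 scale and ABCA1 was higher by 2.14. The other inhibitors went partly the same way, with HMGCS1 means of 576 to 946 over the 5 inhibitor groups against 1094 with the NT control. The ABCA1 mean was 181 with the NT control, 800 with the miR-135a inhibitor, 646 and 537 with the inhibitors of miR-369-3p and miR-410, and 892 with the miR-127-5p mimic. Under median scaling the direction of the list held, with a median of 0.21 that is 0.42 above that of all genes, but 0 of the 21 genes were called higher.

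Small Cajal body and nucleolar RNAs guide the chemical modification of spliceosomal and ribosomal RNA. Of 152 such genes measured, 39 were lower and 2 higher with the mimic than with the NT control, against 9.28% and 10.0% of all genes, and the median log2 fold change was -0.26. With the miR-135a inhibitor 29 of them were lower than with the same NT control arrays, against 6.97% of all genes. The miR-127-5p mimic had 7 lower and the miR-544a mimic 13, where 1178 and 1338 of all 12529 genes were. Each remaining group had 22 to 30 lower, where 197 to 926 of all genes were. Apart from the miR-135a mimic, the medians of the other 10 groups were -0.17 to 0.06. SCARNA18 was at 777 and 685 on the NT control arrays and 84.1 and 70.8 on the mimic arrays (log2 fold change -3.24, limma adjusted p = 2.73e-07, SE 0.26). SNORA12 fell from 1281 and 1078 to 264 and 350, and SCARNA20 from 134 and 136 to 24.3 and 32.7, the detection limit. These levels were not particular to the mimic, because the miR-135a inhibitor group had means of 74.7 for SCARNA18, 104 for SNORA12 and 22.1 for SCARNA20. SCARNA18 was near the NT control with the miR-127-5p mimic (mean 860) and the miR-544a mimic (mean 661), and at 74.7 to 222 in the other 8 groups. Against the 5 inhibitor groups, SCARNA20, SCARNA14 and SNORA12 had log2 differences of 0.22, 0.06 and 0.56, opposite in sign to those against the NT control and not called. In the comparison with the other 5 mimics 22 genes of the list were lower and 0 higher, where 8.09% and 7.47% of all genes were. This list, too, was written after first results had been seen.

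Of 33 genes of TGF-beta and BMP signaling, 7 were lower and 1 higher (median log2 fold change -0.18), against 9.28% and 10.0% of all genes. Beside ID3, TGFBR2, SMAD5 and BMPR2, the inhibitory SMAD gene SMAD6 was at 175 and 163 against 68.4 and 59.2 (log2 fold change -1.41), ID1, a relative of ID3, at 1139 and 1219 against 594 and 565 (log2 fold change -1.02), and PMEPA1 had a log2 fold change of -0.52. FSTL3, which binds activin, was the member called higher (log2 fold change 0.68). In the comparison with the other mimics, 5 genes of the list were lower and 2 higher, against 8.09% and 7.47% of all genes. SMAD6 was not called there (log2 fold change -0.21).

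Integrins are receptors for matrix proteins, and focal adhesion proteins link them to actin. Of 34 measured genes of integrins and focal adhesions, 7 were lower and 3 higher than with the NT control, with a median log2 fold change of -0.04, against 9.28% and 10.0% of all genes. Under median scaling 8 were lower and 0 higher. Against the 5 inhibitor groups 5 were lower and 6 higher, where 7.93% and 8.62% of all genes were. FERMT2, or kindlin-2, an activator of integrins, was at 2631 and 2658 against 690 and 694 (log2 fold change -1.93, limma adjusted p = 2.86e-08, SE 0.12), below the other 11 groups at 1241 to 3636. LIMS1 (PINCH), part of the complex that kindlin and integrin-linked kinase join, fell from 807 and 741 to 286 and 223. The kinase gene PTK2 (FAK) fell from 4021 and 3716 to 1772 and 2066 at its brightest probe, and its dim second probe, at a log2 fold change of -0.23, was not called. ITGB1 and ITGA2, subunits of a collagen receptor, had log2 fold changes of -0.92 and -1.30. The members called higher were ITGB4, RAPGEF1 and GRB2, at 0.51 to 0.89. FERMT2, LIMS1, PTK2, ITGB1 and ITGA2 were lower against the other 5 mimics as well, where the list had 7 lower and 2 higher. The shares of all genes in that comparison were 8.09% and 7.47%.

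Of 39 genes of the extracellular matrix, 7 were lower and 0 higher, against 9.28% and 10.0% of all genes. With 1 array left out 4 to 8 were lower, and against the 5 inhibitor groups 3 were lower and 6 higher. COL6A3, a chain of collagen VI, fell from 318 and 339 to 72.8 and 82.8 (log2 fold change -2.08, SE 0.14). COL7A1 fell from 1806 and 1820 to 698 and 737, and TIMP3, an inhibitor of matrix proteases, from 1414 and 1332 to 450 and 554. TIMP3 was lower still with the miR-135a inhibitor, at a mean of 363, and was not called against the other mimics. Against these, 4 genes of the list were lower and 3 higher, where 8.09% and 7.47% of all genes were. The shares of all genes against the 5 inhibitor groups were 7.93% and 8.62%. The protease gene MMP14 was called lower (adjusted p = 0.0198), and this call was lost without mimic array 1 (adjusted p = 0.158), NT control array 1 (0.0573) or NT control array 2 (0.129).

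Genes of the passage from G1 to S phase were lower in 10 of 37 cases and higher in 1 (median log2 fold change -0.20), against 9.28% and 10.0% of all genes. RBL1, a relative of the retinoblastoma protein, was at 266 and 232 against 105 and 98.2 (log2 fold change -1.29, adjusted p = 4.2e-05 from limma). E2F2 fell from 496 and 492 to 235 and 250, and the replication clamp gene PCNA from 1364 and 1214 to 707 and 639. The dimmer probe of PCNA was at a log2 fold change of -0.01. Against the other mimics its brightest probe was at -0.47 and not called. PCNA was lower still with the miR-135a inhibitor (mean 627), and E2F2 with the miR-544a mimic (mean 217). GINS2 and CDC45, partners of the replicative helicase, had log2 fold changes of -0.92 and -0.86. Against the other 5 mimics 7 genes of the list were lower and 0 higher, where 8.09% and 7.47% of all genes were. RRM2, a subunit of ribonucleotide reductase, was the gene called higher, at 175 and 136 against 301 and 355 (adjusted p = 0.0487), and this call was lost without any 1 of the 4 arrays, with an adjusted p of 0.0975 to 0.242. Of 34 genes of mitosis, 1 was lower, KIF23, a kinesin of the midbody, at 1484 and 1456 against 659 and 687, and 0 were higher, with 5 lower under median scaling.

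**Figure D5:**
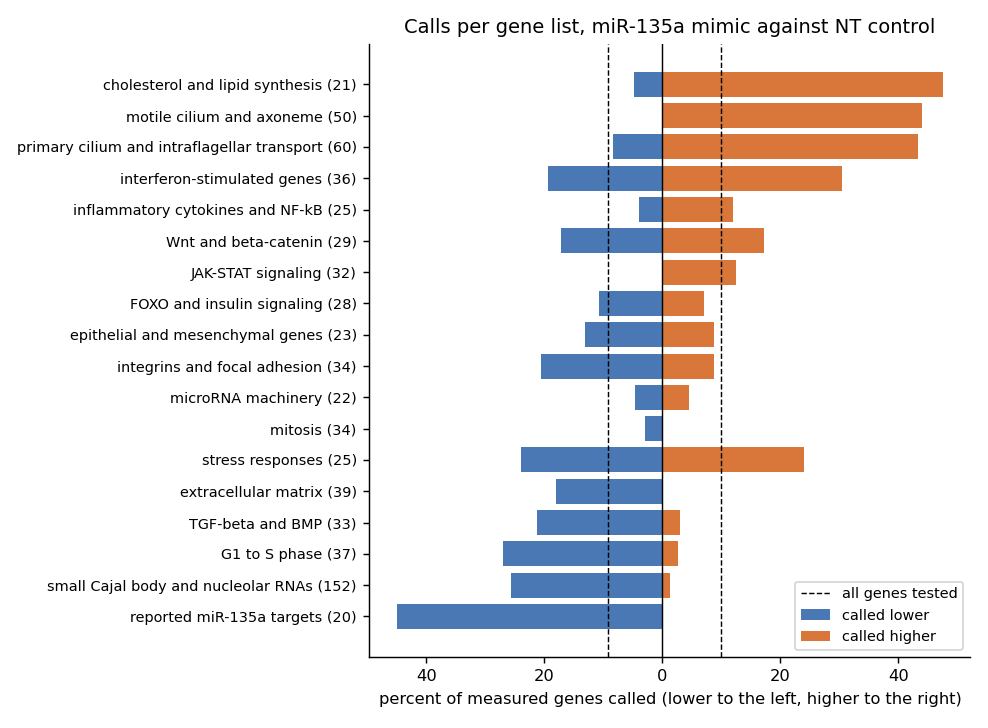
Percent of the measured genes of each list that were called lower (blue, to the left) or higher (orange, to the right) with the miR-135a mimic against the NT control, with the number measured in brackets, lists of cell type markers and 1 other list left out, and dashed lines at 9.28% and 10.0%, the shares of all genes. The longest bars to the right are the cholesterol list (10 of 21) and the 2 cilium lists, and to the left the reported targets (9 of 20). The cilium lists include the genes seen before they were written.

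Interferon-stimulated genes went both ways, with 7 of 36 lower and 11 higher (median log2 fold change 0.14), against 9.28% and 10.0% of all genes. Under median scaling 9 were lower and 4 higher, and with 1 array left out 5 to 10 were higher. The guanylate-binding protein gene GBP1 was at 817 and 807 against 234 and 206 (log2 fold change -1.89, limma adjusted p = 3.17e-07, SE 0.15), and OAS3, an antiviral oligoadenylate synthetase, fell from 286 and 301 to 98.6 and 95.2. OASL rose from 67.5 and 66.9 to 202 and 172, and IFIT3 from 396 and 454 to 954 and 1072. The second IFIT3 probe was called higher at a log2 fold change of 1.77, and its dimmest probe, at 0.29, was not called. Against the other 5 mimics, 10 genes were lower and 1, IFIT3, was higher, where 8.09% and 7.47% of all genes were. GBP1 and OAS3 had the lowest means of the 12 groups with miR-135a, while ISG15, called higher than with the NT control (log2 fold change 0.57), was at -0.18 against the other mimics. Of 25 genes of stress responses, 6 were lower and 6 higher, against 9.28% and 10.0% of all genes. Under median scaling 8 were lower and 3 higher. SLC7A11, the cystine transporter gene, rose from 70.4 and 50.6 to 220 and 167, and TXNRD1, a thioredoxin reductase gene, from 3196 and 3120 to 6880 and 7580. PHGDH, which opens the synthesis of serine, fell from 736 and 764 to 274 and 230, and VLDLR, a lipoprotein receptor gene, from 263 and 294 to 75.7 and 87.5. With the miR-135a inhibitor SLC7A11 and TXNRD1 were also higher than with the NT control (1.17 and 0.99 on the log2 scale), and PHGDH and VLDLR were also lower (-1.31 and -1.36).

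The other signaling lists are given beside the 9.28% of all genes that were lower and the 10.0% that were higher. Of 32 genes of JAK-STAT signaling, 0 were lower and 4 higher (IL13RA1, PIAS3, LIF and SOCS2, at log2 fold changes of 0.72 to 0.86), and under median scaling 1 was lower and 0 higher. The call of LIF was lost without mimic array 2 (adjusted p = 0.0903), NT control array 1 (0.0568) or NT control array 2 (0.0536). Against the other 5 mimics 0 JAK-STAT genes were lower and 2 higher, where 8.09% and 7.47% of all genes were. IL13RA1, PIAS3 and LIF were not called there, at log2 fold changes of 0.25, 0.10 and 0.31. The NT control had the lowest mean of the 12 groups for PIAS3 (166.6) and LIF (69.3). Of 29 genes of Wnt and beta-catenin signaling, 5 were lower and 5 higher. These counts were 1 to 3 and 2 to 4 with 1 array left out, 2 and 2 without background correction, and 4 and 1 under median scaling. FZD1, a Wnt receptor gene, was at 202 and 212 against 52.5 and 47.4 (log2 fold change -2.05, SE 0.42, adjusted p = 0.00197), and DKK3 rose from 31.0 and 29.8 to 87.3 and 73.9. Of 28 genes of FOXO and insulin signaling, 3 were lower (PHLPP2, EIF4EBP1 and RPS6KB1) and 2 were higher (FOXO4 and FOXO3), shares near those of all genes. Of 23 epithelial and mesenchymal genes, 3 were lower and 2 higher (1 or 2 and 1 with 1 array left out), and of 22 genes of the microRNA machinery, 1 was lower and 1 higher.

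Of 25 inflammatory cytokine and NF-kB genes, 1 was lower and 3 were higher than with the NT control, against 9.28% and 10.0% of all genes. With 1 array left out 1 or 2 were higher. Against the 5 inhibitor groups 13 were lower and 0 higher, where 7.93% and 8.62% of all genes were. IL24 was at 85.6 and 89.4 with the NT control and 179 and 188 with the mimic (log2 fold change 1.07), and IL1A at 25.1 and 27.4 against 42.0 and 37.4, next to the detection limit. The call of IL1A was lost without mimic array 1, NT control array 1 or NT control array 2 (log2 fold changes 0.52, 0.53 and 0.66). With the miR-135a inhibitor IL24 and IL1A were higher than with the NT control (5.66 and 5.08 on the log2 scale), at means of 4438 for IL24 and 886 for IL1A. IL24 means were also high with the inhibitors of miR-410 (2840) and miR-369-3p (1990), but 302 and 157 with those of miR-544a and miR-655-3p, and IL1A means were 327, 260, 34.0 and 25.7 in the same order. Against the 5 inhibitor groups, their log2 differences with the mimic were -2.49 and -1.87.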

How the data were processed

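RNA of 24 arrays in 12 groups of 2 was analysed, grouped by the sample titles. The labels name Trizol and RNeasy for the RNA and the methods name RecoverAll. The authors deposited bead signal intensity per probe, before background subtraction and normalization, and a detection p-value that compares each probe with negative controls. They also deposited log2 values, background-subtracted and then quantile normalised with BeadStudio, used here as an alternative.

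Intensities were background-corrected with levels inferred from the detection p-values, given an offset of 16, quantile normalised and log2 transformed (neqc, limma 3.58.1, R 4.3.3). Signals in the text are 2 to the power of these values. All 22803 probes that passed detection on each array of any group entered 1 limma model of 12 group means, with 12 residual and 3.96 prior degrees of freedom. Calls need a Benjamini-Hochberg adjusted p under 0.05 over all probes tested and a fold of at least 1.4, as in the methods; SAM, which the methods name, was not run. The procedure was tested on simulated data. The number of arrays limits the precision.

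Probe symbols came from the platform annotation (30109 probes with 1 symbol, 8 with several, 17192 with none), which left 653 called probes unnamed; 8 genes have probes called in opposite directions. A gene undetected on both arrays of a group has only a bound, computed against the lowest detected signal. Genes are named by a rule: reported targets, the 10 lowest and 10 highest in each comparison with both groups apart, up to 4 members of each of 23 lists with the largest change, and TGFBR2, ROCK2, CILK1 and CDH11. Other members are examples chosen after their values were seen. The counts of 1 list are not reported here. Members and lists were chosen with earlier results of these data known. Figures used Python 3.11.15 and matplotlib 3.10.9. Alternatives were background correction, scaling, the deposited table, filters, arrays fitted, replicate block, each array left out, and other references.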

Additional observations from a re-analysis of the deposited data

How the results depend on the processing

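The counts against the NT control, 1886 probes lower and 1857 higher, became 957 and 922 without background correction. Against the other 5 mimics they became 674 and 576, and for probes called in both comparisons 489 and 373. With median scaling, which moved the median log2 fold change of all probes to -0.19, 509 were higher against the NT control, 2658 lower and 471 higher against the other mimics, and 1678 lower and 233 higher in both, and 84.5% of calls against the NT control were lower instead of 50.4%. With 1 of the 4 arrays left out, 1335 to 1505 probes were lower and 1277 to 1517 higher than the NT control. Against the other mimics 1143 to 1350 were lower and 1144 to 1204 higher without 1 mimic array, and 761 to 864 were lower and 677 to 778 higher in both. The cause of these changes was not tested. With the inhibitor arrays as reference, 8 named genes changed sign: SCARNA20 (0.22), SCARNA14 (0.061), SNORA12 (0.56), MYLK (0.15), CD14 (0.26), RRM2 (-0.69), IL24 (-2.49) and IL1A (-1.87). Besides ROCK1 and RRM2, the calls of CAPZA1, CLDN7, CXCL1, ZEB1 and ZNRF3 against the NT control were lost without any 1 of the 4 arrays. The replicate numbers did not pair the mimic with the NT control (their deviations correlated at 0.02). Over all 66 pairs of groups this correlation was -0.48 to 0.52, and it was over 0.1 in 27 pairs. With the replicate block 1897 probes were lower and 1862 higher, and no call of a named gene changed. Levels near 27 are at the detection limit, where folds are bounds.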
